A study of Mus musculus with 6 samples.

Results

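The Z-disc is the protein lattice at the edge of each sarcomere, the contractile unit of striated muscle. The genes described here are 10 that encode Z-disc proteins, namely Actn2, Myot, Csrp3, Tcap, Ldb3, Myoz1, Myoz2, Nebl, Xirp1 and Xirp2, given as a list of names. Probe sets annotated to 1 listed gene alone were found for 9 of the 10, with 14 probe sets in all, among 18193 genes measured. Where a gene had several probe sets, the one of highest mean across the 6 arrays stands for it. Xirp2 had no such probe set and was not analysed here.

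In the Z-disc, thin filaments from neighbouring sarcomeres are crosslinked in an antiparallel array by alpha-actinin, and titin is anchored there by its N-terminal end. Around this core lie adaptor proteins that bind alpha-actinin, titin, filamin or calcineurin, and several of them are studied as sensors of mechanical load. In the heart the terminal Z-discs merge into the intercalated discs that join neighbouring cardiomyocytes, where the Xin proteins reside. Mutations in several of these genes are known from human cardiomyopathies and skeletal myopathies.

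Total RNA of isolated heart cells from C57BL/6J mice was measured on 6 single-colour Affymetrix arrays, 2 for each of 3 groups. Adult cardiomyocytes came from males at 8 weeks of age, from hearts dissociated by Langendorff perfusion, in which the heart is perfused backwards through the aorta. Neonatal cardiomyocytes and neonatal cardiac fibroblasts came from animals of both sexes at postnatal day 1 and had been parted by density on Percoll; the fibroblasts were also plated, and remaining cardiomyocytes were looked for with TMRM, a mitochondrial dye. No group carried a transgene or a mutation by its labels, and age, sex and isolation all changed between adult and neonatal cells, so these cannot be told apart. Between the neonatal groups, plating cannot be told apart from cell type. The groups follow the source name and the cell type field. The titles of both neonatal replicate 1 arrays name the other neonatal cell type.

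The labelled cell types were checked against 10 cardiomyocyte markers such as Myh6, Myl2 and Tnni3. Their median was 14.34 and 14.29 log2 units on the adult cardiomyocyte arrays (replicate 1 and replicate 2), 14.21 and 14.09 on the neonatal cardiomyocyte arrays, and 8.16 and 11.89 on the neonatal fibroblast arrays. The median of 12 fibroblast markers was 8.24 and 9.81, 9.47 and 9.43, and 12.26 and 11.82 in these groups. On the neonatal replicate 1 arrays both lists followed the source name, not the title. Fibroblast replicate 2 thus had the higher cardiomyocyte marker values of the fibroblast arrays, and its leukocyte markers (11 genes) had a lower median, 9.23 against 11.87. Over all genes neonatal cardiomyocyte replicate 2 correlated at 0.958 with fibroblast replicate 2 and at 0.957 with neonatal cardiomyocyte replicate 1. The fibroblast arrays correlated with each other at 0.963. The adult replicate 2 array had higher medians than adult replicate 1 of fibroblast, leukocyte (8.25 against 6.75) and atrial markers (6 genes, 12.44 against 7.09). In these bulk samples fewer cells of a type and less RNA per cell cannot be told apart.

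**Figure D1:**
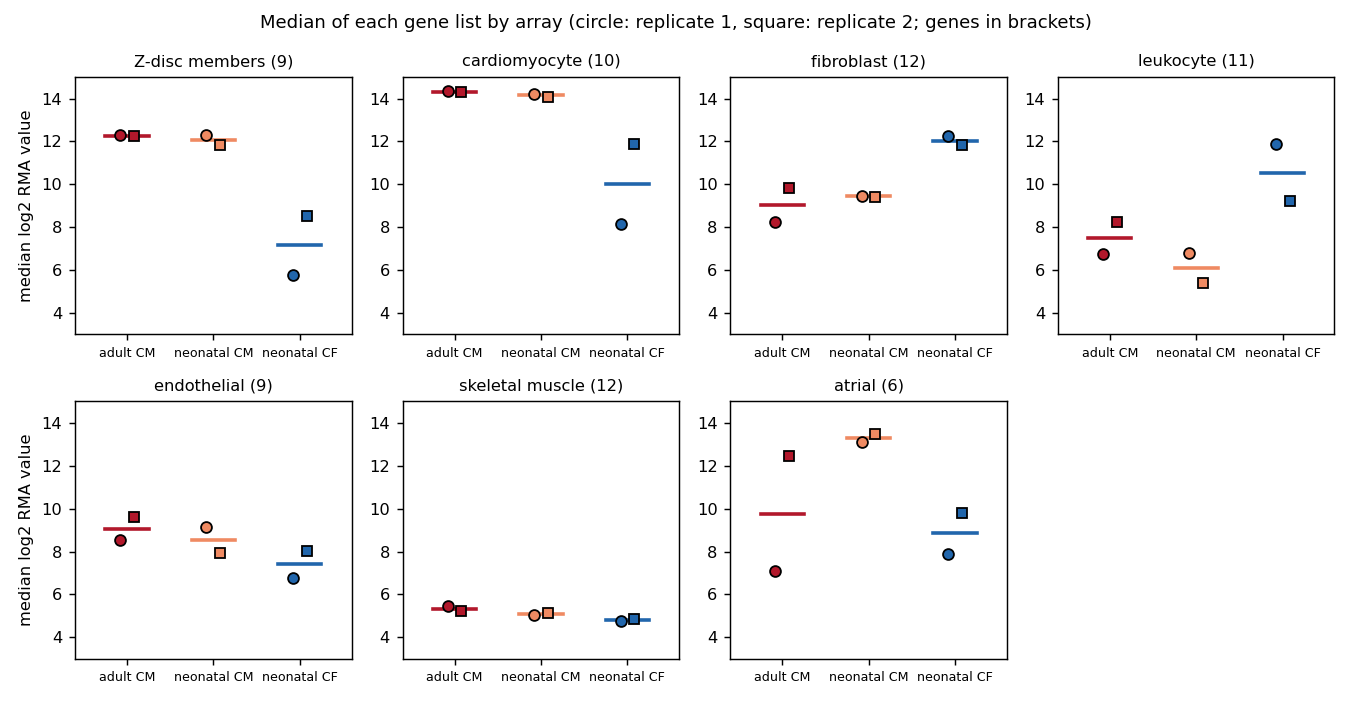
Median log2 RMA value of the 9 measured Z-disc genes and of 6 marker lists on each array, by group (CM, cardiomyocytes; CF, cardiac fibroblasts; circles are replicate 1, squares replicate 2, lines the mean of both). The Z-disc median on fibroblast replicate 2 (8.54) lies above that on replicate 1 (5.79), as does the cardiomyocyte marker median.

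The 9 measured genes fell into 4 patterns across the groups. Actn2, Csrp3, Ldb3, Nebl and Xirp1, with Myoz2, had high values in cardiomyocytes of both ages and lower values in fibroblasts. On fibroblast replicate 2, Ldb3 still lay at percentile 87.9 of all genes, against 41.1 for Xirp1. Tcap had intermediate values in neonatal cardiomyocytes, and Myot was high in adult cardiomyocytes alone among the 3 groups. Myoz1 was low throughout. The median of the 9 genes was 12.28 and 12.23 log2 units on the adult cardiomyocyte arrays, 12.30 and 11.81 on the neonatal cardiomyocyte arrays, and 5.79 and 8.54 on the fibroblast arrays. Values are log2 RMA values of single arrays, replicate 1 before replicate 2, and SE and intervals of differences between group means (n = 2 arrays each) are those of limma.

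**Figure D2:**
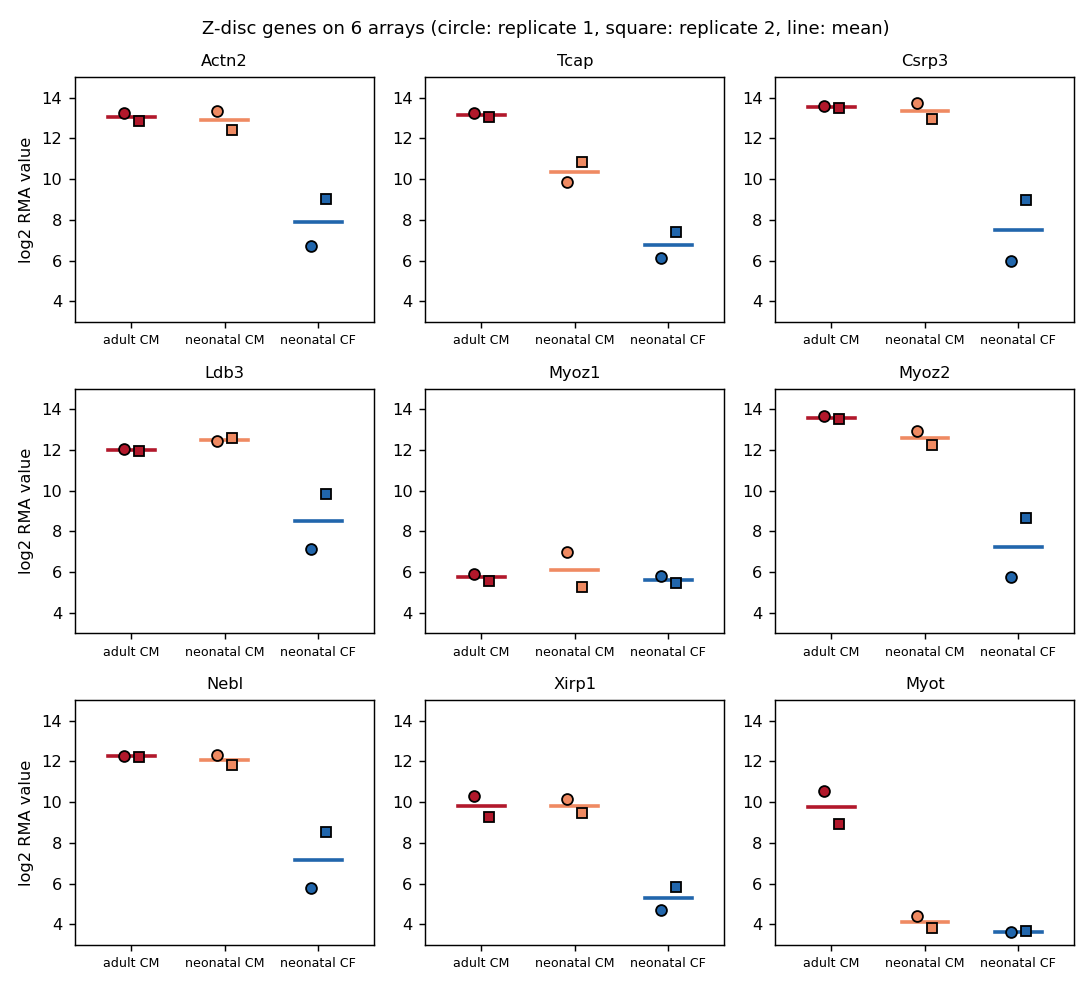
Log2 RMA value of each measured Z-disc gene on every array (y axis) in adult cardiomyocytes, neonatal cardiomyocytes (CM) and neonatal cardiac fibroblasts (CF); circles are replicate 1, squares replicate 2 and lines the group mean. Myot is high on both adult arrays (10.55 and 8.93) and at most 4.40 elsewhere, and Myoz1 stays at or below 6.96 on all 6 arrays.

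Myot encodes myotilin, an immunoglobulin-domain protein that binds alpha-actinin, filamin and actin and is known mainly from skeletal muscle. It measured 10.55 and 8.93 in adult cardiomyocytes, 4.40 and 3.80 in neonatal cardiomyocytes, and 3.61 and 3.67 in fibroblasts. Both adult arrays lay far above the other 4, and the 4 neonatal values lay close to or below the lower quartile of all probe sets on their arrays (4.19 to 4.24). RMA gives no detection call, so whether Myot was expressed at all in neonatal cells was not measured. Myot rose by 5.64 ± 0.56 (SE) log2 units in adult against neonatal cardiomyocytes, with an adjusted p of 0.0246 in limma (95% interval 4.23 to 7.06). With neonatal values so near the low end of the arrays, no fold is given for it. The difference between neonatal cardiomyocytes and fibroblasts was 0.46 (95% interval -0.95 to 1.88, adjusted p = 0.799).

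The adult arrays themselves differed by 1.61 log2 units in Myot (replicate 1 minus replicate 2), and the lower one was the array with higher atrial, fibroblast and leukocyte marker medians. Their part in that spread was not tested. The median of 12 skeletal muscle markers was 5.46 and 5.22 on the adult arrays, 5.06 and 5.13 on the neonatal cardiomyocyte arrays, and 4.77 and 4.88 on the fibroblast arrays. Of the 12, 10 were at or below 6.59 on every array, among them the fast myosin genes Myh1, Myh2 and Myh4 and the myogenic factor genes Myod1 and Myog. The other 2, Acta1 and Ckm, are known also from heart muscle. Acta1 measured 13.05 and 11.72 in adult cardiomyocytes, 11.20 and 10.26 in neonatal cardiomyocytes, and 6.64 and 7.73 in fibroblasts. Like Myot it was lower on adult replicate 2. Ckm measured 13.40 and 13.59 in adult cardiomyocytes, 13.30 and 11.06 in neonatal cardiomyocytes, and 5.89 and 7.83 in fibroblasts. The adult call for Myot was lost without any 1 of the 6 arrays, where the limma adjusted p lay between 0.0540 and 0.151 and the difference between 4.84 and 6.45. Grouped by title it stayed past the threshold.

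Tcap encodes telethonin, which joins the N-terminal ends of titin molecules at the Z-disc. It measured 13.24 and 13.04 in adult cardiomyocytes, 9.86 and 10.86 in neonatal cardiomyocytes, and 6.10 and 7.39 in fibroblasts. The 3 groups did not overlap, and neonatal cardiomyocytes lay between the others. Adult exceeded neonatal cardiomyocytes by 2.78 ± 0.53 (SE), 6.86-fold, with a 95% interval of 1.42 to 4.14, but the limma adjusted p of 0.0705 missed the threshold of 0.05. Against fibroblasts the neonatal cardiomyocyte mean was higher by 3.61 (adjusted p = 0.0619) and the adult one by 6.39 (adjusted p = 0.00616). Unlike most members, Tcap was lower on neonatal cardiomyocyte replicate 1 than on replicate 2.

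Actn2 encodes sarcomeric alpha-actinin, the crosslinker of the Z-disc. Its values were 13.26 and 12.84 in adult cardiomyocytes, 13.33 and 12.43 in neonatal cardiomyocytes, and 6.72 and 9.03 in fibroblasts. The cardiomyocyte arrays of both ages overlapped, and both fibroblast arrays lay below them. The difference between adult and neonatal cardiomyocytes was 0.17, with a 95% interval of -1.86 to 2.19 that leaves room for changes of several fold in either direction. Csrp3, the muscle LIM protein that shuttles between Z-disc and nucleus, had the same layout. It measured 13.59 and 13.46, 13.71 and 12.94, and 6.00 and 8.98 in adult cardiomyocytes, neonatal cardiomyocytes and fibroblasts. Its difference between the ages was 0.20 (95% interval -2.26 to 2.66).

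Ldb3, also called Cypher or ZASP, is a PDZ-LIM adaptor that binds alpha-actinin and protein kinase C. Its probe set with the highest mean gave 12.02 and 11.92 in adult cardiomyocytes, 12.42 and 12.59 in neonatal cardiomyocytes, and 7.13 and 9.85 in fibroblasts. The adult values were both lower than the neonatal ones, with a difference of -0.53 ± 0.86 (SE), adjusted p = 0.729. A second probe set had a smaller difference of the same sign between the ages, -0.08, with overlapping arrays. The third ran the other way, at 12.87 and 10.98 in adult against 11.41 and 9.88 in neonatal cardiomyocytes. Its difference was 1.28 (limma adjusted p = 0.452 when all probe sets were tested). Which Ldb3 transcripts each probe set detects is not annotated in the sources used here. All 3 gave higher means in cardiomyocytes of both ages than in fibroblasts.

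The myozenins, or calsarcins, bind alpha-actinin, filamin and the phosphatase calcineurin, which Myoz2 is known to restrain in the heart. Myoz2, the cardiac and slow muscle member, measured 13.64 and 13.49 in adult cardiomyocytes, 12.90 and 12.21 in neonatal cardiomyocytes, and 5.78 and 8.66 in fibroblasts. The groups did not overlap. The adult mean exceeded the neonatal one by 1.01 ± 0.93 (SE), 2.01-fold, with an adjusted p of 0.542 in limma. Myoz1, the fast skeletal muscle member, measured 5.90 and 5.57 in adult cardiomyocytes, 6.96 and 5.28 in neonatal cardiomyocytes, and 5.79 and 5.44 in fibroblasts. Its groups overlapped in each comparison, and its second probe set stayed between 3.46 and 3.94. The highest Myoz1 value was on neonatal cardiomyocyte replicate 1, 1.69 above replicate 2.

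Nebl encodes nebulette, a small cardiac relative of nebulin that ties thin filaments to the Z-disc. Its values were 12.28 and 12.23 in adult cardiomyocytes, 12.30 and 11.81 in neonatal cardiomyocytes, and 5.77 and 8.54 in fibroblasts, with the ages overlapping. The difference between the ages was 0.20 (95% interval -2.05 to 2.46). The other probe sets gave different spreads between arrays of 1 group. One of them measured 8.88 and 6.54 in adult cardiomyocytes, 9.43 and 6.55 in neonatal cardiomyocytes, and 3.51 and 3.57 in fibroblasts, so that replicate 1 exceeded replicate 2 by over 2 log2 units in both cardiomyocyte groups but not in fibroblasts. The last had adult values of 7.21 and 7.05 below the neonatal 8.42 and 7.29, a difference of -0.73 (adjusted p = 0.391 when all probe sets were tested).

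**Figure D3:**
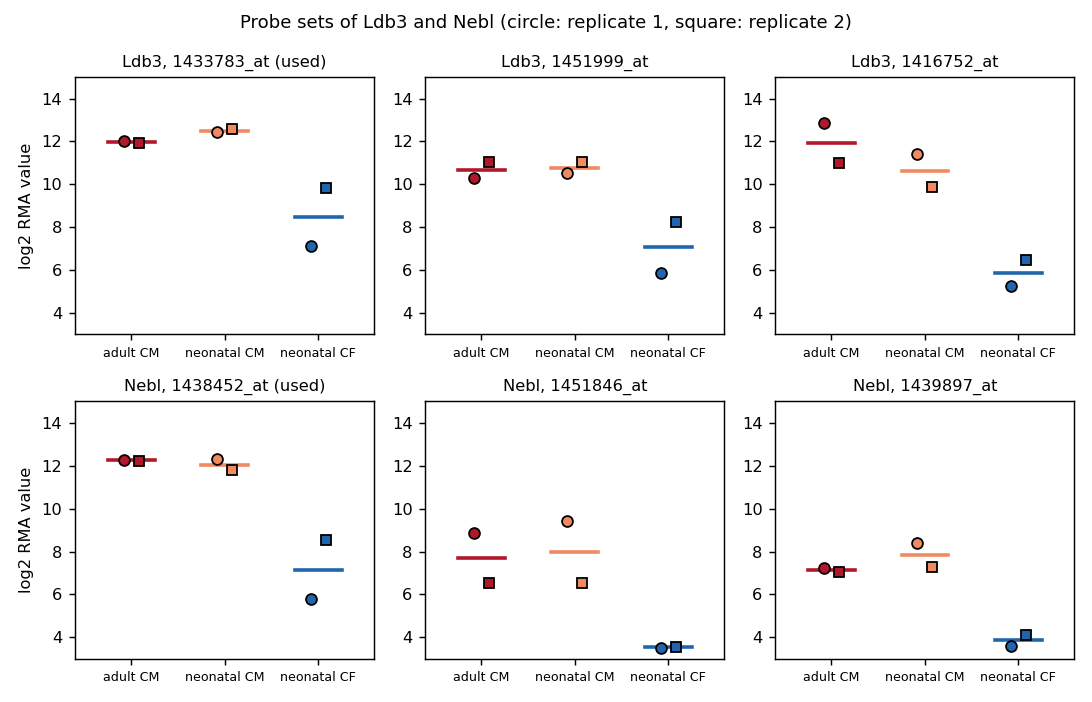
Log2 RMA value on every array for the 3 probe sets of Ldb3 (top) and the 3 of Nebl (bottom), by group, with circles for replicate 1, squares for replicate 2 and lines for group means (CM, cardiomyocytes; CF, cardiac fibroblasts). The third Ldb3 probe set has a higher adult than neonatal mean, the first a lower one; all 6 lie lowest in fibroblasts.

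Xirp1 encodes Xin, an actin-binding repeat protein of intercalated discs and of remodelling sarcomeres. It measured 10.32 and 9.29 in adult cardiomyocytes, 10.16 and 9.46 in neonatal cardiomyocytes, and 4.72 and 5.85 in fibroblasts. The adult values spanned the neonatal ones, and the difference of -0.002 between the ages had a 95% interval of -1.39 to 1.38. In neonatal cardiomyocytes Xirp1 rose by 4.52 ± 0.54 (SE) against fibroblasts, 23.0-fold, with a limma adjusted p of 0.0460. Xirp1 was lower on adult replicate 2 by 1.03. All 9 measured members were lower on that array, with a median replicate 1 minus replicate 2 of 0.20. The part of its higher atrial, fibroblast and leukocyte marker medians in this was not tested.

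Between adult and neonatal cardiomyocytes limma called 1 of the 9 measured members higher, Myot, against 1.08% of all genes, and 0 lower, against 1.22% of all genes. At unadjusted p under 0.05, 2 members were higher (Myot and Tcap) and 0 lower, against 11.1% of all genes higher. Arrays did not overlap with adult above neonatal for 3 members (Myot, Tcap and Myoz2), against 33.9% of all genes, and with adult below for 1 (Ldb3), against 23.8%. Both of these shares lie near or below those of all genes. The median difference of the members was 0.20, against 0.09 over all genes. Under a grouping by title that median was 3.47, and Myot was again the 1 member called.

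Between neonatal cardiomyocytes and fibroblasts all 9 measured members had the higher mean in cardiomyocytes, with a median difference of 4.52 against -0.02 over all genes. Differences ran from 0.46 in Myot and 0.50 in Myoz1 to 5.84 ± 0.97 (SE) in Csrp3, which was 57.2-fold higher with an adjusted p of 0.0713. Myoz2 was 40.4-fold, Actn2 32.1-fold, Nebl 30.0-fold, Ldb3 16.2-fold and Tcap 12.2-fold higher, with limma adjusted p between 0.0619 and 0.107. On fibroblast replicate 1, Nebl (5.77), Myoz2 (5.78) and Csrp3 (6.00) lay near the array median of 5.61, and Xirp1 (4.72) below it. Folds of these genes against fibroblasts, at either age, rest partly on such low values. Limma called 1 member higher, Xirp1, against 0.676% of all genes, and 0 lower, against 0.143%; 7 were higher at unadjusted p under 0.05, against 8.95% of all genes. Arrays did not overlap for 8 members, cardiomyocytes above, against 22.3% of all genes. The count of 1 changed without any 1 of the 6 arrays. Under a grouping by title 0 of all genes were called, and the members' median difference was -1.27.

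The fibroblast arrays differed from each other in most members. Replicate 1 minus replicate 2 was -2.98 in Csrp3, -2.88 in Myoz2, -2.77 in Nebl, -2.72 in Ldb3 and -2.30 in Actn2, with a median of -2.82 over the 10 cardiomyocyte markers. It was -1.29 in Tcap, -1.13 in Xirp1, -0.06 in Myot and 0.35 in Myoz1. Differences to the neonatal cardiomyocyte mean of log2 values were also turned into linear shares of it. The 7 members other than Myot and Myoz1 had between 0.624% and 5.24% on fibroblast replicate 1. On replicate 2 these 7 had between 4.90% and 15.9%. The 10 cardiomyocyte markers had between 0.524% and 18.6%, and between 6.82% and 56.5%. Their part in the members' values was not tested. Some markers lay near the top of the arrays, with Actc1 at 14.52 the highest value on neonatal cardiomyocyte replicate 1. Marker shares may therefore not be on equal terms with those of the members.

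Adult cardiomyocytes against neonatal fibroblasts differ in cell type, age, sex, isolation and plating together. Limma called 8 of the 9 members higher, against 10.1% of all genes, and 0 lower, against 11.0%, with Myoz1 not called (0.12, 95% interval -1.32 to 1.56). Tcap rose 83.8-fold (6.39 ± 0.53 SE, adjusted p = 0.00616), Myoz2 81.3-fold and Csrp3 65.7-fold. Myot, near the low end of the fibroblast arrays, rose by 6.10 log2 units (adjusted p = 0.00715). Actn2, Nebl, Xirp1 and Ldb3 rose 36.1-, 34.4-, 23.0- and 11.2-fold, and Ldb3 had the highest adjusted p of the 8, 0.0462. Arrays did not overlap for 8 members, against 37.8% of all genes, and the median difference was 5.17 against 0.09. The 8 calls became 0 without adult replicate 1 and 1 without adult replicate 2, while 7 and 8 members were higher at unadjusted p under 0.05, and 1 call (Myot) was left when arrays were grouped by title. The comparisons share arrays, so they are not independent of each other.

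**Figure D4:**
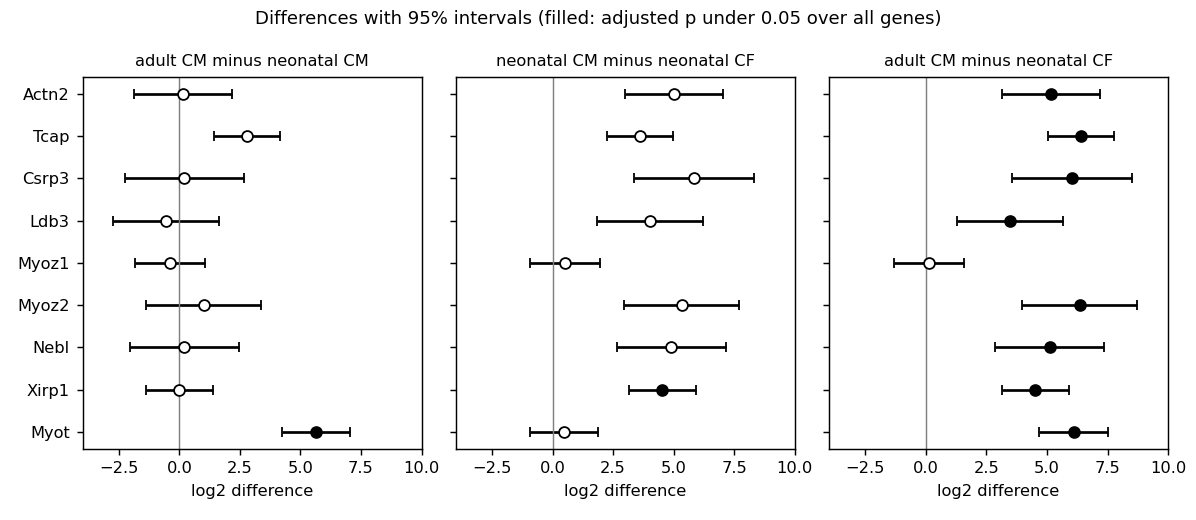
Log2 difference (x axis) of each measured Z-disc gene with its 95% limma interval in the 3 comparisons between adult cardiomyocytes, neonatal cardiomyocytes (CM) and neonatal cardiac fibroblasts (CF); filled points passed an adjusted p of 0.05 over all genes. In adult against neonatal cardiomyocytes the intervals of Myot and Tcap lie above 0 and the other 7 cross it.

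Promoter windows of 300 bases, reaching from 250 bases before to 50 bases after an annotated start, were available from RefSeq (GRCm38.p6) for 6 of the listed members, with 11 windows. Those of Actn2, Csrp3, Ldb3 and Myoz2 are shown because these genes had the same layout, high in cardiomyocytes of both ages and lower in fibroblasts. Where a gene had several windows, the first listed is printed. Nebl shares the layout, but its 4 windows lie at separate starts and are not printed. They lie at chr13:12340683-12340982, chr7:48848002-48848301, chr14:34588632-34588931 and chr3:123034938-123035237, all on the minus strand, and are written 5′ to 3′. Capitals mark matches to the MEF2 consensus, the CArG box bound by serum response factor, M-CAT (CATTCC) or TATAAA, searched on both strands.
Actn2: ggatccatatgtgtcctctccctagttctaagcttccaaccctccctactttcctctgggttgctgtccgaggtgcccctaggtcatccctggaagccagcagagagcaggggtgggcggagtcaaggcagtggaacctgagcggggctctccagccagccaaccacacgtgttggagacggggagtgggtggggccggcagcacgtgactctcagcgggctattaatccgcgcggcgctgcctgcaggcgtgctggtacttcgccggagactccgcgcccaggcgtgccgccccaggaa
Csrp3: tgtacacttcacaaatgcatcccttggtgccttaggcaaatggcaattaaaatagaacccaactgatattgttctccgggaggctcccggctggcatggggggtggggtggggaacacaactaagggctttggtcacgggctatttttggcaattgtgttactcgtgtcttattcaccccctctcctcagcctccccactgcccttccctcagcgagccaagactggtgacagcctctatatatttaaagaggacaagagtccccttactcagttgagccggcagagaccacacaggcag
Ldb3: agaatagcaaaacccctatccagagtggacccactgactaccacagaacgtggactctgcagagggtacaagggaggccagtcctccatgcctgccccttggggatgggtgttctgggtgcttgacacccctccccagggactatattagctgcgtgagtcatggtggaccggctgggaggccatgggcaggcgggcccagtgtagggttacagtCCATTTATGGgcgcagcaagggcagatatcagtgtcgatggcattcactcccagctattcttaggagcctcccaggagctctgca
Myoz2: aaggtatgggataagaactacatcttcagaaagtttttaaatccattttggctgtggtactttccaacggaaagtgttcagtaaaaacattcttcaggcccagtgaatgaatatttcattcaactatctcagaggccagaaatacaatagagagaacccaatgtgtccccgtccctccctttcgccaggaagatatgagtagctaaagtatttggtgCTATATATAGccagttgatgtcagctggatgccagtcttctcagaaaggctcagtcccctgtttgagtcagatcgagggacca

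The Myoz2 window held a MEF2 match whose first base lies 33 bases before the start, CTATATATAG, a motif found in 3.19% of 32851 windows of this length. The Ldb3 window held a CArG box 35 bases before the start, CCATTTATGG, found in 1.63% of windows. The Actn2 and Csrp3 windows held no match to these 4 motifs. Of the other windows, 1 of the 4 of Nebl held M-CAT (14.7% of all windows), another of Nebl a CArG box 162 bases before its start, and the Xirp2 window a MEF2 match 74 bases before its start. TATAAA was found in no member window, against 13.6% of all windows. Only these letters were searched, so other TATA-like stretches, such as TATATATA within the Myoz2 match, were not counted. E-boxes (CANNTG) and GATAA were also searched and occur in 72.3% and 25.4% of all windows. None of these matches overlapped a match to another of the motifs searched. A match is a stretch of letters, and binding was not measured here.

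Of 26 measured other structural genes of the Z-disc and its surroundings, 0 rose and 1 fell in adult against neonatal cardiomyocytes (median 0.02). The one that fell was Capza1, a subunit of the protein that caps actin filament ends in the Z-disc, at 9.26 and 9.34 in adult against 11.11 and 11.33 in neonatal cardiomyocytes (-1.92 ± 0.21 SE, limma adjusted p = 0.0278). At unadjusted p under 0.05, 5 of the 26 differed, a share near that of all genes in either direction, 22.8%; in neonatal cardiomyocytes against fibroblasts that share of all genes was 16.3%. Against fibroblasts, 2 rose in neonatal cardiomyocytes (median 1.12): Nrap, an actin-binding protein of myofibril assembly, by 4.02 and the intermediate filament gene Des by 3.25. In adult cardiomyocytes against fibroblasts 12 rose and 3 fell (median 1.11), where 10.1% of all genes rose and 11.0% fell, so that the count that fell lies near the share of all genes. The counts of the following lists are to be read against the same shares of all genes in each comparison. Those that fell were the non-muscle alpha-actinin genes Actn1 (-3.62) and Actn4 (-1.99), and Capza1 (-2.18). The largest increases were in Mlip (5.58), Nrap (5.06), Mypn (5.04), which encodes myopalladin, and Ttn (4.86), which encodes titin.

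Among 6 measured ankyrin repeat, calpain and MuRF genes, whose products bind titin or lie near it, Ankrd23 rose in adult against neonatal cardiomyocytes. It measured 11.40 and 10.56 in adult and 7.97 and 8.66 in neonatal cardiomyocytes, a difference of 2.66 ± 0.40 (SE) with a limma adjusted p of 0.0467. The list's median was 0.40. The ubiquitin ligase gene Trim54 had a difference of 2.98 that missed the threshold (limma adjusted p = 0.0798). Against fibroblasts 0 of the 6 were called in neonatal cardiomyocytes by limma (median 1.59, 5 at unadjusted p under 0.05), and 4 rose in adult cardiomyocytes (median 2.64), with Trim54 (5.82), Ankrd23 (4.72), Trim63 (4.39) and Capn3 (0.88).

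The 13 other LIM and PDZ-LIM genes gave 0 calls in limma between adult and neonatal cardiomyocytes (median -0.22, 2 at unadjusted p under 0.05). The paralogs of Csrp3 had lower adult means: Csrp1 measured 7.32 and 8.38 in adult and 10.35 and 10.24 in neonatal cardiomyocytes (-2.45, adjusted p = 0.0680), and Csrp2 7.41 and 9.57 against 10.89 and 11.87 (-2.89, adjusted p = 0.169). Between neonatal cardiomyocytes and fibroblasts 0 were called (median 0.66, 5 at unadjusted p under 0.05). In adult cardiomyocytes against fibroblasts Crip2 rose by 2.02, while Pdlim2 fell by 5.17 and Csrp1 by 2.66 (median -0.29).

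In the calcineurin pathway, 12 measured genes gave 0 limma calls between the ages (median -0.04, 2 at unadjusted p under 0.05). The calcineurin inhibitor gene Rcan1 rose by 2.25 in neonatal cardiomyocytes against fibroblasts, alone of the 12 (median -0.02). In adult cardiomyocytes against fibroblasts 4 rose and 0 fell (median -0.13), namely Rcan2 (2.46), Rcan1 (2.19), the transcription factor gene Nfatc2 (1.83) and the catalytic subunit gene Ppp3cc (1.35).

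The 11 intercalated disc genes chosen as neighbours of the Xin proteins also gave 0 limma calls between the ages (median -0.44, 3 at unadjusted p under 0.05). Pkp2, a desmosomal plakophilin, rose by 2.81 in neonatal cardiomyocytes against fibroblasts (list median 0.95). Against fibroblasts Dsp (5.45), Ctnna3 (3.03), Pkp2 (2.23) and the connexin gene Gja1 (1.84) rose in adult cardiomyocytes, and Vcl, which encodes vinculin, fell by 1.15 (list median 0.57). Among 13 muscle transcription factor genes 0 were called between the ages, also at unadjusted p under 0.05 (median -0.44). The histone methyltransferase gene Smyd1 rose by 4.75 in neonatal cardiomyocytes against fibroblasts (list median 1.15). In adult cardiomyocytes 6 of the 13 rose against fibroblasts (list median 1.09), led by Smyd1 (5.08), Hopx (5.05), Nkx2-5 (3.09) and Tbx5 (1.67).

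The arrays fall into 3 groups, so a correlation over them measures mainly the likeness of the group pattern. Outside the list, the genes closest to the mean of the 9 members were Ndufc1, Cyc1, Slc47a1, Tmem182 and Ppp1r3g, with r between 0.997 and 0.999 over the 6 arrays among 9088 genes of above-median spread. Those closest to Myot were Prss36, Prss2, Mal, Zfp839 and BC004004, with r between 0.996 and 0.999. Among these, BC004004 measured 11.89 and 11.50 in adult cardiomyocytes, 10.50 and 10.38 in neonatal cardiomyocytes, and 10.16 and 10.26 in fibroblasts, a narrower range than that of Myot.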

How the data were processed

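The deposited table holds log2 expression values of 45101 probe sets on 6 arrays, made with RMA per the submitters' processing notes. No RMA version is given in the sources used here, nor whether all arrays went through it as one set; medians per array ran between 5.60 and 5.67. By the platform annotation, 34945 probe sets belonged to 1 gene alone, which left 18193 genes with 1 probe set each. All genes and arrays entered 1 limma 3.58.1 model of 3 group means (R 4.3.3; 3 residual and 2.18 prior degrees of freedom). P-values are two-sided, with Benjamini-Hochberg adjustment across the 18193 genes; rose, fell and called mean an adjusted p below 0.05. The fit was tested on simulated data. Nothing in the labels tells whether both arrays of a group are separate preparations, so p-values measure the spread between arrays, which may be technical, and 2 arrays per group limit the precision. The members, the 6 other lists and the 8 marker lists were chosen with earlier results of these data known. In the other lists, up to 4 called genes with non-overlapping arrays and the largest differences are named in each comparison, with every gene behind a count of called genes of 5 or fewer; for adult against neonatal cardiomyocytes, Trim54, Csrp1 and Csrp2 were named after their values were seen, as was BC004004 for its levels. Genes most like the members were the 5 of highest Pearson correlation over the 6 arrays among genes of above-median SD. Alternatives covered the grouping, single arrays, the replicate number, probe sets, low values, normalization and the variance model.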

Additional observations from a re-analysis of the deposited data

How the results depend on the processing

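The number of Z-disc members called was recomputed under each alternative; the 2 neonatal replicate 2 arrays were left out together after seeing the data. In adult against neonatal cardiomyocytes the count of 1 (Myot) became 0 when genes with a mean under 6 were left out (Myot among them), with only the 2 groups compared, with no moderation, without both neonatal replicate 1 arrays and without both replicate 2 arrays, and lay between 0 and 0 when single arrays were left out. In neonatal cardiomyocytes against fibroblasts the count of 1 became 6 with the filter at 6 and 2 with trend and robust moderation. It became 0 with groups from the titles, the mean of probe sets, the probe set of highest variance, all probe sets, repeated quantile normalization, no moderation, only 2 groups, and without both neonatal arrays of either replicate number, and lay between 0 and 7 without single arrays. In adult cardiomyocytes against fibroblasts the count of 8 became 1 with groups from the titles, 5 without both neonatal replicate 1 arrays and 0 with no moderation, and lay between 0 and 8 without single arrays. In that comparison the Ldb3 probe set used was not called when all probe sets were tested (limma adjusted p = 0.0540). Both other Ldb3 probe sets were called there (limma adjusted p = 0.0427 and 0.0161). The filter at 6 left Myot out. Where single arrays are left out, the lone array is assumed to vary like the other groups. Counts without single arrays are not set against all genes here. Between the neonatal groups 0 of all genes were called with groups from the titles, the probe set of highest variance and all probe sets. The same held with no moderation and with only 2 groups. The mean of probe sets gave 59 calls and repeated quantile normalization 131. Between the ages no moderation gave 3 and only 2 groups 164. A member count of 0 where no gene was called is not a result about the members.

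With the replicate number as a block, 1, 0 and 8 members were called in the 3 comparisons, against 1, 1 and 8 without it, and 607, 0 and 4811 genes in all, against 418, 149 and 3829. Arrays of the same replicate number also carry consecutive sample numbers in the deposit. Whether they form a batch was not tested. Same-numbered deviations correlated over genes at 0.27 between adult and neonatal cardiomyocytes and at 0.21 between adult cardiomyocytes and fibroblasts. Between the neonatal groups they correlated at 0.18, with 2 pairs per comparison.

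Signs also changed. With groups from the titles, neonatal cardiomyocytes minus fibroblasts gave -1.60 for Actn2, -0.33 for Myot, -1.87 for Csrp3, -0.14 for Tcap, -1.27 for Ldb3, -0.67 for Myoz1, -1.78 for Myoz2, -1.63 for Nebl and -0.91 for Xirp1; adult minus neonatal cardiomyocytes gave 2.11 for Ldb3, 0.20 for Myoz1 and 2.72 for Xirp1; and adult cardiomyocytes minus fibroblasts gave -0.47 for Myoz1. Between the ages, the mean of probe sets gave 0.22 for Ldb3 and -0.27 for Nebl, the probe set of highest variance 1.28 for Ldb3, and repeated quantile normalization 0.11 for Xirp1. Without both neonatal replicate 1 arrays, Myoz1 gave 0.46 and Xirp1 0.35 between the ages, and Myoz1 -0.16 between the neonatal groups. Without both replicate 2 arrays, Actn2 gave -0.28, Csrp3 -0.19 and Nebl -0.045 between the ages, and Myoz1 -0.057 in adult cardiomyocytes minus fibroblasts. Without single arrays, the difference between the ages lay between -0.28 and 0.62 for Actn2, -0.19 and 0.59 for Csrp3, -1.23 and 0.46 for Myoz1, -0.045 and 0.45 for Nebl, and -0.52 and 0.52 for Xirp1. For Myoz1 it lay between -0.34 and 1.35 between the neonatal groups and between -0.057 and 0.29 in adult cardiomyocytes minus fibroblasts. The grouping by title exchanges the 2 neonatal replicate 1 arrays. By source name their cardiomyocyte marker medians were 14.21 (cardiomyocytes) and 8.16 (fibroblasts), and their fibroblast marker medians 9.47 and 12.26. The cause of the other changes was not tested.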
